A study of Homo sapiens with 6 samples.

Results

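Complex I (NADH:ubiquinone oxidoreductase) is the largest enzyme of the mitochondrial respiratory chain. It takes electrons from NADH, passes them along iron-sulfur clusters to ubiquinone, and couples this to proton pumping across the inner membrane. Its matrix arm consists of an NADH-oxidizing module and a quinone-reducing module, its membrane arm pumps protons, and a set of assembly factors builds the enzyme without staying in it. A few of its membrane subunits are made from mitochondrial DNA, and the nucleus encodes the rest.

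The nuclear-encoded genes described here were chosen by name, as the entries called NDUF followed by A, B, C, S, V, AB or AF and a number, which gave 45 of the 56303 genes of the deposited table. RNA was sequenced from the gastric adenocarcinoma cell line AGS, of human origin, in 2 groups. The knockdown group, with sample titles that read siSRSF, received a small interfering RNA taken here as directed at SRSF2 (siSRSF2). It gave 3 libraries. The control group, labelled WT, also gave 3. The labels give no treatment time and no control siRNA for the WT cells, and they do not tell replicates from repeated preparations of 1 culture. The p-values therefore reflect only how these libraries vary, which may be technical. In bulk RNA, fewer cells of a kind and less RNA per cell cannot be told apart. SRSF2 encodes a serine/arginine-rich protein that binds exonic RNA and promotes exon inclusion.

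Total counts were 47518943 to 50021152 in the WT libraries and 26610937 to 36651623 in the siSRSF2 libraries, so low-count genes are measured less precisely after knockdown. Levels are given as CPM, counts per 1e+06 after TMM scaling. SRSF2 itself was at 44.5, 46.4 and 44.1 CPM in WT and at 21.6, 21.8 and 24.9 CPM in siSRSF2, and fell by 0.98 on the log2 scale (SE 0.0638, adjusted p = 4.39e-13 by edgeR). The epithelial keratin genes KRT8 (3236 ± 156 CPM in WT, SD, n = 3) and KRT18 (1099 ± 53.5 CPM) were abundant, whereas CDH1, the E-cadherin gene, was at 0.219 ± 0.0573 CPM. EPCAM, KRT19 and CLDN4 were low too, with means of 5.005, 3.21 and 1.45 CPM in WT. Summed, these 6 epithelial markers lay between 4128 and 4545 CPM in WT and between 3683 and 3945 CPM in siSRSF2. KRT8 fell (log2 fold change -0.22), CLDN4 rose (1.79), and EPCAM, KRT18, KRT19 and CDH1 did not pass. The part of these changes in the results below was not tested. The summed level of 7 fibroblast and endothelial markers lay between 22.6 and 22.8 CPM in WT and between 43.5 and 48.1 CPM in siSRSF2, mostly from COL1A1, and its part in the results below was not tested. Its members went both ways: COL1A1 (log2 fold change 1.16), DCN (2.33) and PDGFRB (0.46) rose, the endothelial genes PECAM1 (-2.03) and CDH5 (-1.21) fell, COL1A2 (0.31) did not pass, and VWF was below the filter on low counts. That of 6 leukocyte markers lay between 23.9 and 25.6 CPM in WT and between 24.5 and 26.9 CPM in siSRSF2, nearly all from the lysosomal gene CD68, and CD3E was at 0 in all WT libraries.

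Nuclear-encoded complex I genes were mostly lower in siSRSF2 cells, by modest amounts. All 45 passed the filter on low counts. Of these, 26 (57.8%) fell, 4 (8.89%) rose and 15 did not pass, at an adjusted p of 0.05 from edgeR's quasi-likelihood test. So 66.7% of the complex I genes were called, beside 59.1% of all 23689 genes tested, of which 29.0% fell and 30.1% rose. The median log2 fold change of the 45 genes was -0.34, beside 0.02 over all genes tested. Scaling by library totals instead of TMM moved the median over all genes up by 0.13 to 0.15 and that of the complex I genes to -0.21. Then 24 complex I genes fell and 10 rose, beside 23.2% and 36.1% of all genes (59.3% called). Against a change of 1.2-fold, 20 fell and 2 rose, beside 20.9% and 23.5% of all genes. The distance between both medians was -0.36 with TMM and -0.35 with totals. A change of scaling moves all genes by nearly the same amount, so this distance could hardly differ and is no check on the result.

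The 45 genes together held 0.218%, 0.218% and 0.219% of all counts in the WT libraries and 0.196%, 0.198% and 0.204% in the siSRSF2 libraries. Their summed level was 2283, 2272 and 2304 CPM in WT and 1917, 1879 and 1922 CPM in siSRSF2, and the groups did not overlap. Single genes also separated the groups: the libraries did not overlap in 32 of the 45 genes (71.1%), beside 63.8% of all genes tested. Of the 45 genes, 26 were lower in siSRSF2 without overlap and 6 were higher without overlap, beside 31.2% and 32.5% of all genes tested.

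NDUFAF4 stood apart in size. It fell 4.40-fold, whereas the log2 fold changes of the other 25 genes that fell lay between -0.79 and -0.14. A fall of over 2-fold was thus seen in 1 of 45 genes, beside 5.91% of all genes tested, and a rise of over 2-fold in none, beside 13.4%. After NDUFAF4 the lowest were NDUFAF5, NDUFA12, NDUFAF2, NDUFAB1 and NDUFS6. Among the genes that rose were NDUFC1, NDUFS1 and NDUFB1, and the largest rise, in NDUFC1, was 1.83-fold. Across the 45 genes, the log2 fold change had Spearman rho values near 0 with exon length (0.07), with the number of separate exon blocks (-0.04) and with the mean WT level in CPM (-0.02). These are descriptions over genes that share the same libraries.

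**Figure D1:**
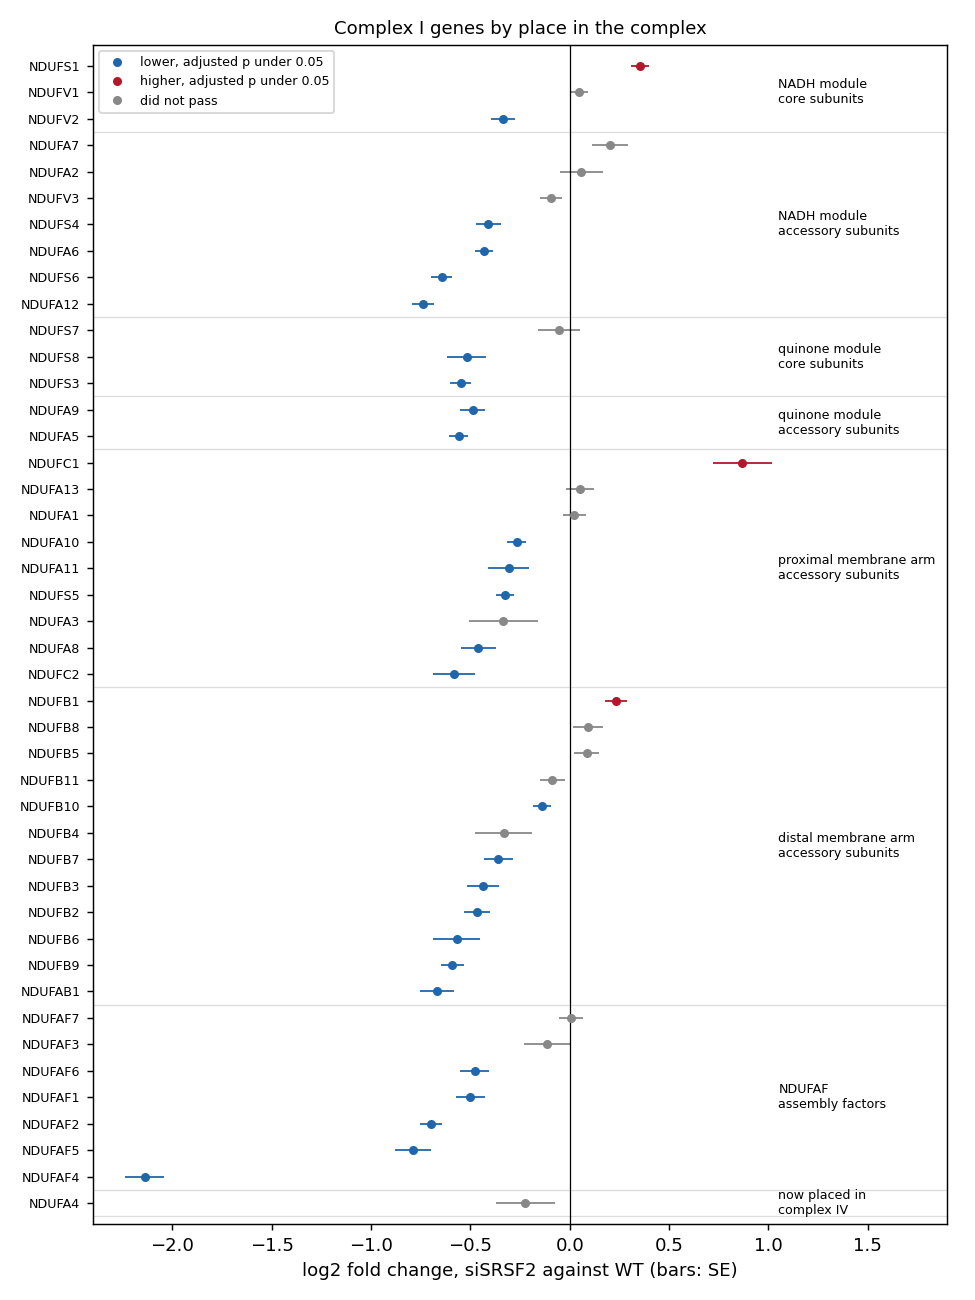
Log2 fold change of 44 of the 45 genes (x axis, siSRSF2 against WT) with its SE as a bar, grouped by place in the complex (y axis). Blue points passed the edgeR test as lower, red points as higher, and grey points did not pass; NDUFAF4 lies at -2.14, apart from all others.

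RefSeq promoter windows (250 bases before to 50 after the start, GRCh38.p14) were found for 38 of the 45 genes. Motifs of factors known from respiratory gene promoters were searched on both strands. The palindromic core of the NRF1 motif was in 7 of the 38 windows (18.4%), beside 5.78% of all 35116 windows and 10.7% of those of tested genes. CCGGAAG, the ETS motif read by GABPA, was in 6 (15.8%), beside 17.4% for tested genes. The YY1 motif was in 2 (5.26%), beside 1.85% for tested genes, and the E-box CACGTG in 4 (10.5%), beside 9.84%. The NRF1 core was in 5 of the 22 windows of genes that fell and in 2 of the 13 of genes that did not pass. A match is a description of the letters and does not show binding. The windows of the 2 genes with the largest changes and of 1 further gene in each direction are shown for the 250 bases before the start, 5′ to 3′ on the gene's strand, with a match to any of the 4 motifs in capitals.
NDUFAF4, which fell most, chr6:96897892-96898141, minus strand, with an ETS match: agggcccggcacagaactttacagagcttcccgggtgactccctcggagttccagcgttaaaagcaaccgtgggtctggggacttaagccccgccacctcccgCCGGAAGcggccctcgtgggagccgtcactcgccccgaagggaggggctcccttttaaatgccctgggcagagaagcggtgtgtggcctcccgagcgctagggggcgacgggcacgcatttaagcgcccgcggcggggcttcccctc
NDUFA12, the accessory subunit with the lowest fold change, chr12:95003698-95003947, minus strand, with an NRF1 match: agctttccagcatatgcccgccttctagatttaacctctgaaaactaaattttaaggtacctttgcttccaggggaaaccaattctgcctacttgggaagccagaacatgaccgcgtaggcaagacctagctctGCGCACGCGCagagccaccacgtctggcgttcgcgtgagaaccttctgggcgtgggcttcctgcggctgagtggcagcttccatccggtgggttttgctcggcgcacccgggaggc
NDUFS1, the core subunit that rose most, chr2:206159445-206159694, minus strand, with an ETS match on the other strand: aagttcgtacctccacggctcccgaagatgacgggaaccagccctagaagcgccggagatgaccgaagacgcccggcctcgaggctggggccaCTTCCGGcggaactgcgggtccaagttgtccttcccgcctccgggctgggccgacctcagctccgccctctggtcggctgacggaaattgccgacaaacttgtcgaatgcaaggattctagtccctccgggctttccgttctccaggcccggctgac
NDUFC1, which rose most, chr4:139302552-139302801, minus strand, with none of the 4 motifs: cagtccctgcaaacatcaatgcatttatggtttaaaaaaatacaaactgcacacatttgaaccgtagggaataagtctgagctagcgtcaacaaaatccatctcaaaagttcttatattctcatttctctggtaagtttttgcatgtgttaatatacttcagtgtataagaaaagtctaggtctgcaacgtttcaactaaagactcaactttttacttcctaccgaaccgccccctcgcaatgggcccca
An ETS match was thus in the window of a gene that fell (NDUFAF4) and in that of a gene that rose (NDUFS1). The G and C content of the NDUFC1 window was 42.7%, beside a median of 60.8% over the 38 windows. It was lower still in the windows of NDUFS4 (40.3%) and NDUFA5, genes that fell. The windows of NDUFS1 (63.7%) and NDUFB1, which rose, lay nearer the median. A low content was thus not particular to genes that rose.

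Subunits of the catalytic core did not move together: of the 6 nuclear-encoded ones described here, 3 fell, 1 rose and 2 did not pass. Counts here and by place in the complex below stand beside 29.0% lower and 30.1% higher over all genes tested. In the NADH module, NDUFV1 binds NADH and holds the flavin that accepts its electrons. NDUFV1 (chromosome 11, 67606852 to 67612535, GRCh38) was at 83.6, 83.8 and 83.8 CPM in WT and at 85.5, 86.5 and 87.6 CPM in siSRSF2. The groups did not overlap, yet the log2 fold change of 0.05 (SE 0.0458) did not pass (edgeR adjusted p = 0.387). With scaling by totals it was 0.18 and passed (adjusted p = 0.00220). NDUFV2, an iron-sulfur partner of NDUFV1, was at 43.5, 42.0 and 44.2 CPM in WT and at 36.8, 31.8 and 34.3 CPM in siSRSF2. Every siSRSF2 library lay below every WT library, and NDUFV2 fell 1.26-fold (log2 fold change -0.34 with SE 0.0603, adjusted p = 2.61e-05 by edgeR). Its fall missed the threshold of edgeR's test against 1.2-fold (adjusted p = 0.0802). NDUFV2 shares 771 exon bases with the same-strand entry RP11-21J18.1, which held similar counts (2122, 2079 and 2218 in WT beside 2074, 1920 and 2099). Whether reads there were counted for both entries is not stated. NDUFS1, the largest core subunit, carries several iron-sulfur clusters and moved the other way. It was at 123, 126 and 118 CPM in WT and at 152, 159 and 158 CPM in siSRSF2. NDUFS1 (chromosome 2, 206114817 to 206159603) rose 1.28-fold (log2 fold change 0.35 with SE 0.0452, adjusted p = 1.65e-07 by edgeR).

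Of the quinone module's core subunits described here, NDUFS3 and NDUFS8 fell and NDUFS7 did not pass. NDUFS3, in the lower part of the matrix arm, was at 59.4, 61.0 and 61.2 CPM in WT and at 40.2, 40.5 and 43.4 CPM in siSRSF2. The highest siSRSF2 library was far below the lowest WT library, and NDUFS3 fell 1.46-fold (log2 fold change -0.55 with SE 0.0533, adjusted p = 1.18e-09 by edgeR). NDUFS3 shares 721 exon bases with the phosphatase gene PTPMT1 on the same strand, whose log2 fold change was -0.53, and whether reads there were counted for both genes is not stated. NDUFS8, an iron-sulfur subunit, was at 13.4, 15.8 and 12.8 CPM in WT and at 8.65, 10.2 and 10.4 CPM in siSRSF2. It fell 1.43-fold with no overlap of the groups (log2 fold change -0.52 with SE 0.0976, adjusted p = 5.10e-05 by edgeR). NDUFS7, which holds the last cluster before ubiquinone, was at 9.68, 9.85 and 8.91 CPM in WT and at 8.32, 10.6 and 8.37 CPM in siSRSF2. These groups overlapped (log2 fold change -0.05, edgeR adjusted p = 0.691), and 49.1% of NDUFS7 exon bases also lie in opposite-strand entries.

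Ratios of counts within a library do not depend on scaling. The count ratio of NDUFS1 to NDUFV2 was 2.84, 2.99 and 2.68 in WT and 4.12, 4.99 and 4.61 in siSRSF2. Every siSRSF2 library lay above every WT library. The pair was chosen after its values were seen, so no test is given. How reads in the bases that NDUFV2 shares with RP11-21J18.1 were counted also enters this ratio.

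**Figure D2:**
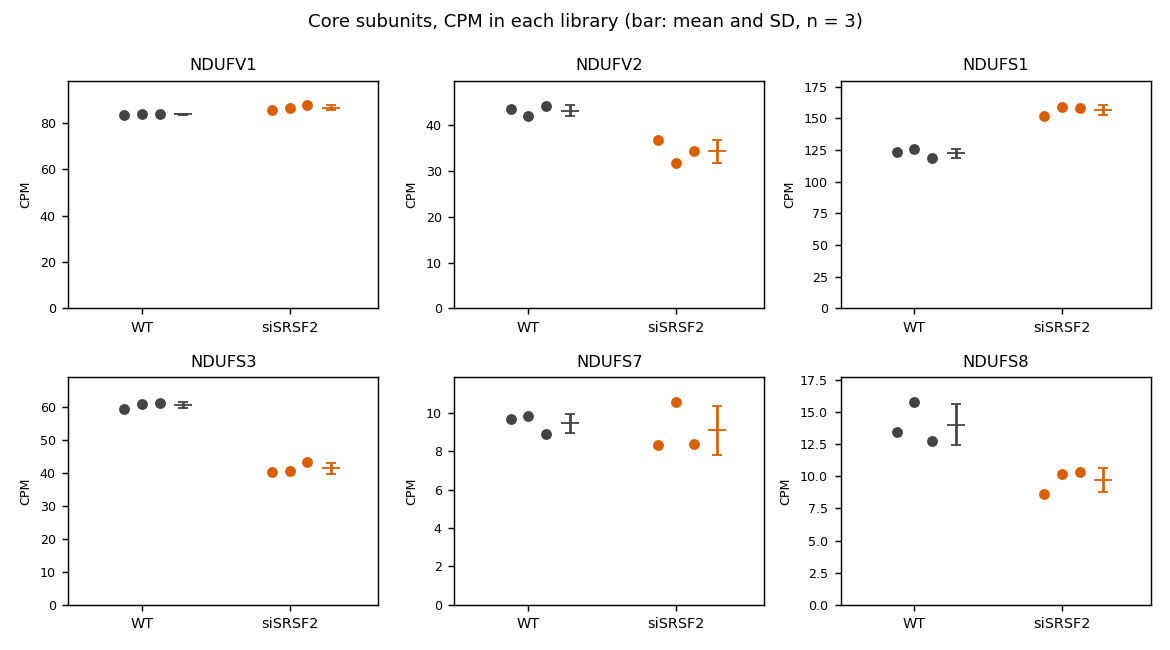
CPM of 6 nuclear-encoded core subunits in each library (points; y axes start at 0), with mean and SD (n = 3) beside them. NDUFV2, NDUFS3 and NDUFS8 are lower in siSRSF2, NDUFS1 is higher, and NDUFS7 overlaps between groups.

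Accessory subunits surround the core and are needed for its assembly and stability. Around the NADH module, 4 of 7 fell and 3 did not pass. NDUFA12 (chromosome 12, 94897055 to 95003770) was at 61.2, 58.1 and 59.4 CPM in WT and at 35.9, 34.0 and 37.3 CPM in siSRSF2, with a wide gap between the groups. It fell 1.67-fold (log2 fold change -0.74 with SE 0.0551, adjusted p = 7.39e-12 by edgeR). NDUFS6, a zinc-binding subunit, was at 172, 166 and 170 CPM in WT and at 110, 98.1 and 117 CPM in siSRSF2. It fell 1.56-fold (log2 fold change -0.64 with SE 0.0529, adjusted p = 8.36e-11 by edgeR). NDUFA6 (-0.43) and NDUFS4 (-0.41), a subunit often mutated in inherited complex I deficiency, fell by less. NDUFV3 (-0.09), NDUFA2 (0.06) and NDUFA7 (0.20) did not pass, though NDUFV3 passed as lower with no filter on low counts (edgeR adjusted p = 0.0107). NDUFA7 did not overlap between groups and passed with scaling by totals (0.33, edgeR adjusted p = 0.00301) and among genes averaging 1 CPM or more (0.25, adjusted p = 0.0151). Both accessory subunits of the quinone module fell, NDUFA5 with a log2 fold change of -0.56 and NDUFA9, a dehydrogenase-like subunit, with -0.49.

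Of 9 accessory subunits in the part of the membrane arm next to the matrix arm, 5 fell, 1 rose and 3 did not pass. NDUFC1, a small membrane subunit, was at 3.30, 2.52 and 2.72 CPM in WT and at 5.26, 4.67 and 5.69 CPM in siSRSF2. Every siSRSF2 library exceeded every WT library, and NDUFC1 (chromosome 4, 139266880 to 139302551) rose 1.83-fold (log2 fold change 0.87 with SE 0.148, adjusted p = 1.34e-05 by edgeR). It rests on few reads, with counts of 157, 115 and 129 in WT and of 143, 180 and 197 in siSRSF2. The subunit gene with the nearest name went the other way: NDUFC2 fell (-0.58). NDUFA8 (-0.46), NDUFS5 (-0.33), NDUFA11 (-0.31) and the nucleoside kinase-like NDUFA10 (-0.27) fell too. Of these, NDUFS5 (edgeR adjusted p = 0.0542), NDUFA11 (0.247) and NDUFA10 (0.360) missed the threshold of the test against 1.2-fold. The call on NDUFA11 ended with scaling by totals (edgeR adjusted p = 0.149) and without siSRSF2 replicate 2 (adjusted p = 0.0589). NDUFA3 had -0.34 on counts of 62 to 158 and passed as lower without siSRSF2 replicate 2 (edgeR adjusted p = 0.0356). NDUFA1 (0.02) and NDUFA13 (0.05), also known as the cell death regulator GRIM-19, did not pass. With scaling by totals both passed as higher (edgeR adjusted p = 0.0344 for NDUFA1 and 0.0380 for NDUFA13). NDUFA1 shares 44.5% of its exon bases with the opposite-strand gene RNF113A.

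At the far end of the membrane arm, 7 of 12 accessory subunits fell, 1 rose and 4 did not pass. NDUFAB1, the mitochondrial acyl carrier protein, was at 19.2, 20.3 and 18.8 CPM in WT and at 10.5, 12.7 and 13.5 CPM in siSRSF2. The groups were well apart, and it fell 1.59-fold (log2 fold change -0.67 with SE 0.0861, adjusted p = 1.92e-07 by edgeR). NDUFB9 (-0.59), NDUFB6 (-0.57), NDUFB2 (-0.47), NDUFB3 (-0.43), NDUFB7 (-0.36) and NDUFB10 (-0.14) fell as well. Of these, NDUFB7 (edgeR adjusted p = 0.0719) and NDUFB10 missed the threshold of the test against 1.2-fold. NDUFB10 had a log2 fold change of -0.012 with scaling by totals (edgeR adjusted p = 0.849) and did not pass when genes averaging under 1 CPM were dropped (adjusted p = 0.0771). NDUFB1 was at 48.7, 47.5 and 48.9 CPM in WT and at 52.7, 57.1 and 60.3 CPM in siSRSF2, with every siSRSF2 library above every WT library. It rose 1.17-fold (log2 fold change 0.23 with SE 0.0553, adjusted p = 0.000770 by edgeR), which missed the threshold of the test against 1.2-fold (adjusted p = 0.611). NDUFB4 (-0.33, edgeR adjusted p = 0.0505), NDUFB11 (-0.09), NDUFB5 (0.09) and NDUFB8 (0.09) did not pass. NDUFB11 shares 44.9% of its exon bases with RBM10 on the opposite strand, and NDUFB8 shares 48.5% with other entries. Some of these calls turned with single libraries, scaling or filter. NDUFB4 passed as lower without WT replicate 1 (edgeR adjusted p = 0.0199) or siSRSF2 replicate 1 (0.0170), and also with RLE factors. With no filter on low counts, NDUFB4 and NDUFB11 passed as lower. NDUFB8 passed as higher without siSRSF2 replicate 3 (edgeR adjusted p = 0.00650). With scaling by totals, NDUFB8 (edgeR adjusted p = 0.00903) and NDUFB5 (0.00584) passed as higher. NDUFA4, first named as a complex I subunit and now placed in complex IV, had a log2 fold change of -0.22 and did not pass (edgeR adjusted p = 0.215), but passed without siSRSF2 replicate 3 (0.0417).

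Assembly factors include NDUFAF4, the gene with the lowest fold change of the 45. Of 7 found, 5 fell and 2 did not pass, with a median log2 fold change of -0.50 (-0.37 with scaling by totals). NDUFAF4, which acts with NDUFAF3 on early intermediates of the quinone module, was at 20.7, 19.6 and 19.8 CPM in WT and at 3.86, 5.11 and 4.53 CPM in siSRSF2. These levels rest on 984, 896 and 941 reads in WT and on 105, 197 and 157 in siSRSF2. NDUFAF4 (chromosome 6, 96889313 to 96897881) thus fell 4.40-fold (log2 fold change -2.14 with SE 0.0984, adjusted p = 3.89e-16 by edgeR). Only 0.376% of all genes tested had a lower log2 fold change. Its partner NDUFAF3 was at 7.62, 8.97 and 8.60 CPM in WT and at 7.62, 6.56 and 9.15 CPM in siSRSF2, with overlapping groups (log2 fold change -0.11 with SE 0.117, adjusted p = 0.430 by edgeR). NDUFAF4 exons share no position with another entry, while 21.7% of NDUFAF3 exon bases lie in DALRD3 on the opposite strand.

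NDUFAF5 hydroxylates an arginine of NDUFS7. It was at 12.8, 13.8 and 14.4 CPM in WT and at 7.77, 7.71 and 8.23 CPM in siSRSF2, and fell 1.73-fold (log2 fold change -0.79 with SE 0.0916, adjusted p = 3.24e-08 by edgeR). NDUFAF8, which stabilizes NDUFAF5, stands in the table under its older name C17orf89 and so lay outside the name rule. It was at 51.4, 53.6 and 52.7 CPM in WT and at 29.2, 30.4 and 37.9 CPM in siSRSF2 (log2 fold change -0.69 with SE 0.0746, adjusted p = 1.22e-07 by edgeR). In both genes the groups were clearly apart. NDUFAF2 is a paralogue of NDUFA12 that holds its place in a late intermediate. NDUFAF2 was at 90.1, 90.9 and 93.9 CPM in WT and at 62.1, 52.0 and 55.5 CPM in siSRSF2, and fell 1.62-fold (log2 fold change -0.70 with SE 0.0559, adjusted p = 2.83e-11 by edgeR). The log2 fold changes of NDUFAF2 and NDUFA12 differed by less than either SE.

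NDUFAF1, a member of the MCIA complex that builds the membrane arm, was at 23.5, 22.1 and 24.1 CPM in WT and at 16.4, 17.2 and 15.6 CPM in siSRSF2 (log2 fold change -0.50 with SE 0.0721, adjusted p = 1.10e-06 by edgeR). NDUFAF6, which acts in early assembly, was at 21.8, 23.1 and 21.5 CPM in WT and at 15.2, 17.0 and 15.2 CPM in siSRSF2 (log2 fold change -0.48 with SE 0.0741, adjusted p = 3.44e-06 by edgeR). Neither gene overlapped between groups. NDUFAF7, a protein arginine methyltransferase, was at 32.0, 32.5 and 33.8 CPM in WT and at 33.2, 34.0 and 31.5 CPM in siSRSF2. Its groups overlapped (log2 fold change 0.01, edgeR adjusted p = 0.944).

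**Figure D3:**
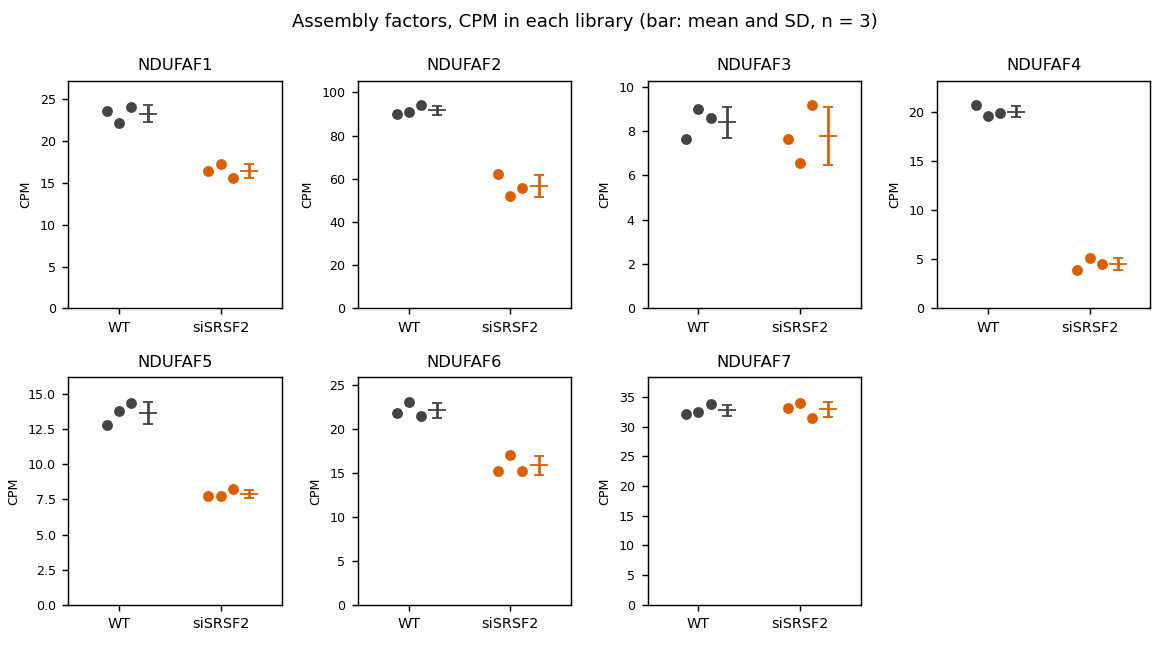
CPM of the 7 NDUFAF assembly factors in each library (points; y axes start at 0), with mean and SD (n = 3) beside them. NDUFAF4 lies between 19.6 and 20.7 CPM in WT and between 3.86 and 5.11 CPM in siSRSF2, while NDUFAF3 and NDUFAF7 overlap between groups.

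Levels between genes can be compared only per length, here as CPM per kb of annotated exon. In WT, NDUFS5 was the most abundant at 852 ± 23.4 CPM per kb (SD, n = 3) and held 20.4% of the counts of the 45 genes (19.5% in siSRSF2). NDUFS6 (117 ± 2.27), NDUFA6 (95.7 ± 1.55), NDUFB10 (94.0 ± 1.15) and NDUFAF2 (90.1 ± 1.99) followed, and the ranges of NDUFA6 and NDUFB10 overlapped. The lowest were NDUFA3 (1.21 ± 0.127), NDUFS7 (1.26 ± 0.0659) and NDUFC1 (1.47 ± 0.208 CPM per kb), so the levels spanned 705-fold. The median was 9.98 CPM per kb, beside 2.01 over all genes tested. In 27 of the 44 pairs of neighbours in this order the WT ranges overlapped, so most ranks are not resolved. The length counts all annotated exons, which understates genes with long rare isoforms.

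**Figure D4:**
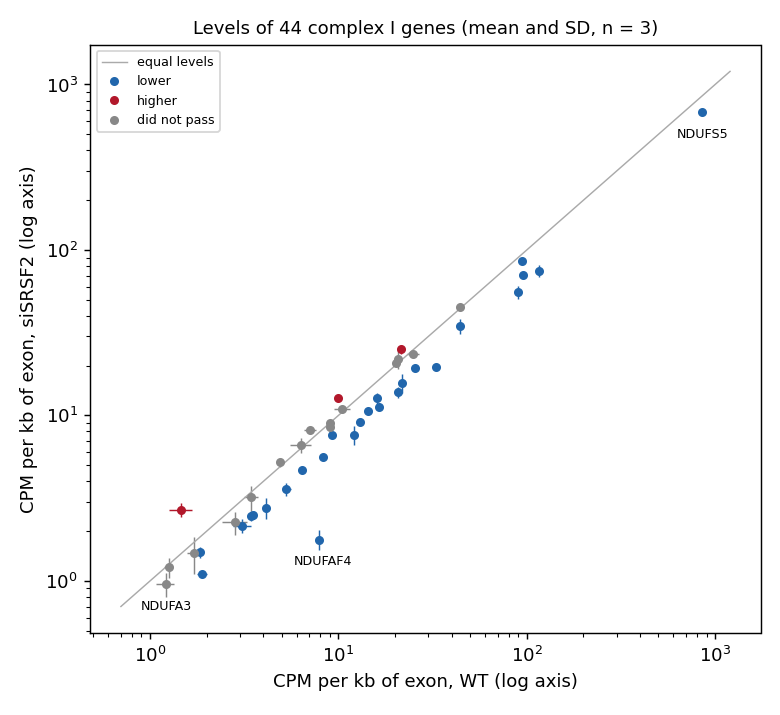
Level of 44 of the 45 genes in CPM per kb of exon, WT (x, log axis) against siSRSF2 (y, log axis), as means with SD (n = 3); the line marks equal levels. NDUFS5 lies at the top at 852 in WT, and NDUFAF4 lies farthest below the line.

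Gene copies and overlaps limit some of these values. Exons of 23 of the 45 genes share positions with another entry, and the sources used here do not give the strand setting of the counting. Some overlapping entries held nearly the same counts as the complex I gene: the read-through entry NDUFC2-KCTD14 held 537, 478 and 503 counts in WT beside 536, 495 and 506 for NDUFC2, and their log2 fold changes were -0.57 and -0.58. In siSRSF2 they held 194, 263 and 271 beside 214, 236 and 277. Whether reads were counted for both entries cannot be told from the table. Among the 22 genes whose exons share no position, 15 fell, 2 rose and 5 did neither (median -0.38 in log2 fold change). Over all genes tested, with or without shared exons, 29.0% fell and 30.1% rose. The share among all genes without shared exons was not computed. Pseudogene entries were listed for 19 of the 45 genes and held 0.369% as many counts as the 45 genes. NDUFB4 had the most such counts, with 467 in its 12 pseudogene entries beside 1170 in the gene. NDUFAF4 had 81 in 4 entries beside 3280 in the gene. How reads with several matches were counted is not stated, so these counts may not show all reads shared with pseudogenes.

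Other complex I genes were mostly lower too, beside 29.0% lower and 30.1% higher over all genes tested. Of 11 assembly factors without an NDUF name, 8 fell and 3 stayed short of the threshold (median -0.30 in log2 fold change, or -0.17 with scaling by totals). TMEM70, which also serves ATP synthase assembly, fell most, being at 12.1 ± 0.545 CPM in WT and 5.03 ± 0.269 CPM in siSRSF2 (SD, n = 3; log2 fold change -1.26 with SE 0.102, adjusted p = 3.71e-11 by edgeR). TMEM126B (-0.39), a partner of NDUFAF1 in the MCIA complex, and TIMMDC1 (-0.35) fell as well. All 7 mitochondrially encoded complex I mRNAs fell (median -0.61, or -0.48 with scaling by totals), among them MT-ND5 (-0.82), MT-ND3 (-0.81) and MT-ND1 (-0.61). The largest fall of the 7 was in MT-ND6 (-1.05).

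The counts for the other respiratory complexes stand beside 29.0% lower and 30.1% higher over all genes tested. Complex II, which feeds electrons from succinate, had 4 higher and 4 lower of 8, with SDHA up (0.51) and SDHB (-0.53) and the assembly factor SDHAF3 (-0.75) down. In complex III, 5 of 9 nuclear subunits fell and 4 did not pass, with UQCRFS1 (-0.54), CYC1 (-0.44) and UQCRQ (-0.36) down. The largest fall there was in UQCR10 (-0.81). Complex IV had 3 higher and 3 lower of 10, shares near those over all genes, with COX6C (0.32) and COX5B (0.19) up and COX5A (-0.35) down, though only 1 was lower without WT replicate 3 or without siSRSF2 replicate 2, and its median of -0.05 became 0.08 with scaling by totals. Complex V had 10 of 15 lower and 5 that did not pass, with ATP5PB (listed as ATP5F1, -0.53), ATP5F1B (listed as ATP5B, -0.33) and ATP5F1E (listed as ATP5E, -0.32) among those that fell. Its largest fall was in ATP5MC3 (listed as ATP5G3, -0.56). With scaling by totals, 23.2% of all genes tested were lower and 36.1% higher. The counts then became 2 higher and 4 lower in complex III, 5 higher and 1 lower in complex IV, and 3 higher and 8 lower in complex V. The difference between complexes was not tested.

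**Figure D5:**
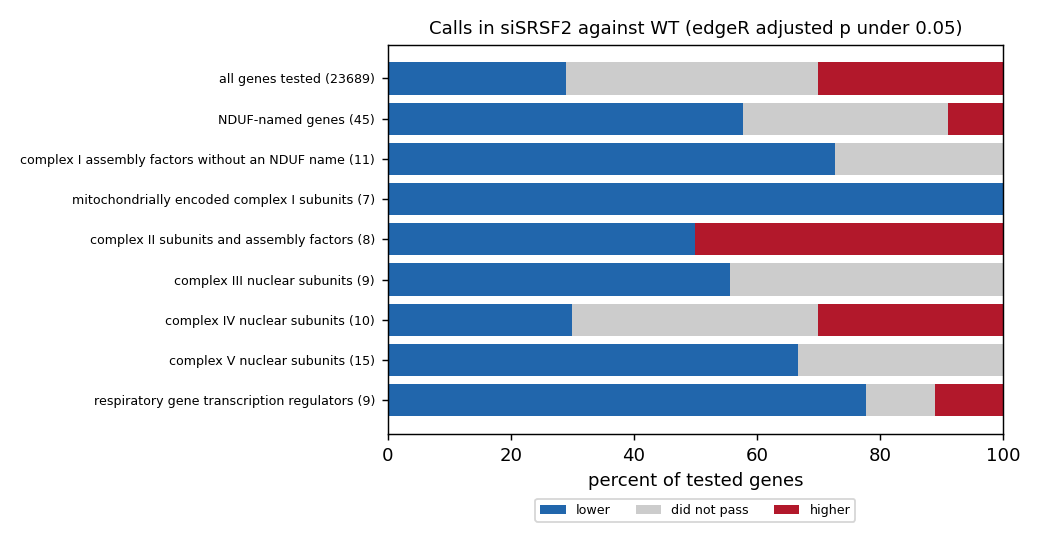
Percent of tested genes that were lower (blue), higher (red) or did not pass (grey) in siSRSF2, by edgeR at an adjusted p of 0.05, for all genes tested and for each list (number tested in brackets). Among the NDUF-named genes 57.8% were lower, beside 29.0% of all genes.

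Regulators of respiratory gene transcription fell in 7 of 9 genes and rose in 1 (median -0.59 in log2 fold change, or -0.46 with scaling by totals, where 5 were lower). Over all genes tested, 29.0% fell and 30.1% rose, or 23.2% and 36.1% with scaling by totals. TFAM, which packages and transcribes mitochondrial DNA, was at 85.9 ± 2.75 CPM in WT and fell to 39.9 ± 1.46 CPM (SD, n = 3; log2 fold change -1.11 with SE 0.0521, adjusted p = 5.99e-16 by edgeR). The coactivator genes PPRC1 (-1.09) and PPARGC1B (-1.10) fell by nearly as much. The exception was PPARGC1A, a related coactivator, which rose (1.43). NRF1, whose motif was searched above, fell (-0.59), and GABPA, of the ETS motif, fell too (-0.20), though not with scaling by totals. YY1, whose motif was searched as well, did not pass (-0.026, edgeR adjusted p = 0.660). A link between these levels and the genes with a motif match was not tested.

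One NDUF-named gene outside the rule, chosen here after its values were seen, moved far more than any of the 45. NDUFA4L2, a hypoxia-inducible paralogue of NDUFA4, was at 3.23, 2.82 and 2.76 CPM in WT and at 35.5, 32.6 and 31.4 CPM in siSRSF2. Every siSRSF2 library was far above the WT libraries, and NDUFA4L2 rose 11.3-fold (log2 fold change 3.49 with SE 0.0912, adjusted p = 6.31e-21 by edgeR), while NDUFA4 itself did not pass.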

How the data were processed

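The table the authors deposited gives unnormalized counts for 6 libraries by gene name, with exon lengths. The tools named in the submitters' processing notes are HISAT2 2.0.5 and featureCounts 1.5.0-p3, and the build named there is mm10, of mouse. The table holds human genes, and 43 of the 45 complex I genes have the GENCODE 29 (GRCh38) start and end. The sources used here do not state the strand setting or how reads with several matches were counted.

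The analysis used edgeR 4.0.16 (R 4.3.3): filterByExpr (minimum count 10), TMM scaling, and a robust quasi-likelihood F test of group over 23689 genes, with p-values adjusted by Benjamini-Hochberg and a threshold of 0.05. The biological coefficient of variation was 6.27%. SEs were derived from the F statistic. Replicates within groups varied beyond sampling noise (chi-square of 3.83 to 8.75 per gene). The pipeline was tested on simulated data. Members and lists were chosen with earlier results of these data known. One gene of the list counts in all totals but is not reported here by itself. Values per library are given for the other core subunits, the 6 largest falls, the other rises and the assembly factors. Up to 3 genes of smallest p are named per other list, with the gene of largest fall added in some lists. Alternatives were DESeq2 1.42.0, other scalings and filters, the replicate block, each library left out and a test against 1.2-fold.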

Additional observations from a re-analysis of the deposited data

How the results depend on the processing

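Of the 45 complex I genes, 20 fell and 2 rose under all 13 alternatives run, and 4 did not pass under any. The call on the other 19 changed under at least 1, or on 13 of them without the test against 1.2-fold. The share of all genes tested that kept their call was not computed, so these counts do not set complex I genes apart. With scaling by library totals, 10 complex I genes rose, beside 36.1% of all genes tested, and their median was -0.21. Against 1.2-fold, 2 rose and 20 fell, beside 23.5% and 20.9% of all genes tested. Restricting to genes whose exons share no position left 22 genes, 2 higher and 15 lower, beside 30.1% and 29.0% of all genes tested. With no filter on low counts the median was -0.41. Leaving out each library gave 4 to 5 higher and 26 to 27 lower, and the shares over all genes were not computed there. Of 60 other respiratory chain genes, 7 rose and 37 fell (median -0.30), beside 30.1% and 29.0% of all genes tested. With scaling by totals 15 rose (median -0.17), beside 36.1% of all genes. Against 1.2-fold 3 rose and 24 fell, beside 23.5% and 20.9%, and with no filter the median was -0.37. The cause of these shifts was not tested beyond what each alternative changes.

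Signs turned only in genes that had not passed. With scaling by totals the log2 fold changes were 0.077 for NDUFS7, 0.035 for NDUFV3, 0.018 for NDUFAF3 and 0.042 for NDUFB11. With no filter they were -0.027 for NDUFV1, -0.022 for NDUFA13, -0.069 for NDUFAF7, -0.018 for NDUFA2 and -0.053 for NDUFA1. NDUFAF7 was at -0.0043 with DESeq2 and with RLE factors. Leaving out 1 library gave -0.19 to 0.011 for NDUFS7, -0.027 to 0.11 for NDUFA13, -0.026 to 0.030 for NDUFAF7, -0.26 to 0.00060 for NDUFAF3, -0.048 to 0.12 for NDUFA2 and -0.0055 to 0.037 for NDUFA1.

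Deviations from the group means had correlations of 0.04, -0.08 and -0.05 between same-numbered libraries of the 2 groups. Between libraries of different number they lay between -0.058 and 0.11. Deviations from means of 3 libraries are bound to each other, so these values cannot tell whether same-numbered libraries shared a culture or day. With the replicate block, 4 complex I genes rose and 26 fell, as without it, and the median was -0.34.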
